A study of Homo sapiens with 17 samples.

Results

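The nuclear genes of oxidative phosphorylation were followed, complex by complex, through a time course of toyocamycin in a colon cancer cell line. They were chosen by symbol alone: the NDUFA, NDUFB, NDUFC, NDUFS and NDUFV genes for complex I, SDHA to SDHD for complex II, the UQCR genes and CYC1 for complex III, the COX4 to COX8 genes for complex IV, and the ATP5F1, ATP5M and ATP5P genes for complex V. This gave 87 of the 19141 genes in the count table, with 38 in complex I, 4 in complex II, 10 in complex III, 17 in complex IV and 18 in complex V. NDUFA4 was kept with complex I, as its symbol places it, although it is known as a subunit of complex IV.

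The cells were YB5, a line made from SW48 human colon cancer cells that carries a single insertion of a silenced GFP reporter under the CMV promoter. Every library came from these cells, so all groups share the reporter. Cultures received toyocamycin at 250 nM or the solvent DMSO, and poly(A) RNA was sequenced at 2, 10, 24, 48 and 72 h as labelled (the text of the study names a later last time point). The 17 libraries were 2 per arm at 2 h, 1 DMSO and 2 toyocamycin libraries at 10 h, 1 per arm at 24 h and at 48 h, and 3 per arm at 72 h. Toyocamycin is an adenosine analogue made by Streptomyces and was studied here as an inhibitor of CDK9, the kinase that releases paused RNA polymerase II.

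Oxidative phosphorylation couples electron transport to ATP synthesis in the inner mitochondrial membrane. Complex I takes electrons from NADH and complex II from succinate, complex III passes them from ubiquinol to cytochrome c, complex IV hands them to oxygen, and complex V makes ATP from the proton gradient. Complex II is coded in the nucleus alone, while the other complexes also hold subunits coded by mitochondrial DNA, so their assembly draws on both genomes.

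Library totals ran from 16179215 to 20756242 counts in DMSO and from 8735465 to 22121364 in toyocamycin. Replicate 2 of toyocamycin at 10 h stood apart, with the lowest total and 6.55% of its counts in mitochondrially coded genes, against 0.917% to 3.49% in the other 16 libraries. A second sequencing batch held 4 libraries, replicate 2 of both arms at 2 h and at 10 h. Of the 12 colon epithelial markers, 8 were above 1 CPM in every DMSO library, among them EPCAM, CDH1 and CDX2, while CDX1 was at 0 in DMSO. The blood and endothelial markers stayed under 1 CPM in every DMSO library, and their summed levels in toyocamycin reached 18.7 and 14.7 CPM. Of 6 fibroblast markers 3 did so, and their sum reached 12.4 CPM in DMSO and 22.2 CPM in toyocamycin. The part of these markers in the results was not tested. CPM are counts-per-million values, with the library size scaled by TMM (trimmed mean of M-values), and log2 fold changes below are toyocamycin over DMSO on that scale.

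In DMSO the members differed widely in level. Per length of exon, ATP5F1B, the catalytic beta subunit of ATP synthase, was highest with a median of 1355 TPM (counts per base of exon, scaled to the same total in each library) over 8 libraries (range 1199 to 1629). COX4I1, the widely expressed form of complex IV subunit 4, followed at 968 (901 to 1018) and UQCRH, the hinge protein of complex III, at 907 (800 to 1052), and the ranges of COX4I1 and UQCRH overlapped. At the other end were 6 members too low to test, COX4I2, COX6A2, COX7A1, COX7B2, COX8C and ATP5MGL, which left 81 tested. Most of these 6 are known as forms of restricted tissue use. The highest of them in any library was COX7A1, a muscle form, at 0.608 CPM, in a toyocamycin library of 72 h.

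Members also shared features that their names do not give. Their median gene span was 12.4 kb against 31.4 kb for all genes tested, with a median of 4 against 9 exons. Promoters in the RefSeq table for GRCh38.p14, which run from 250 bases before to 50 after the start, were found for 70 members. The motif of NRF1, a regulator of respiratory genes, read as GCGCA and GCGC on either side of 1 free base, was present in 24.3% of them, against 10.5% of 11677 promoters of genes tested and 6.28% of the 27305 promoters in the table. The YY1 motif AANATGGCG stood in 22.9% of member promoters and 6.16% of those of genes tested, and the ETS motif CCGGAAG in 28.6% and 17.2%, all searched on both strands. By complex, the NRF1 motif was present in 4 of 7 promoters of complex III and 1 of 14 of complex IV, and the YY1 motif in 10 of 33 of complex I. NRF1 matches stood in 7 of 23 promoters of members called higher and in 5 of 34 of those called lower at 72 h, and in 4 of 10 of those called in neither direction. Members with no entry included NDUFB5, NDUFB9, NDUFC2, NDUFS5, SDHC, CYC1, UQCRB, UQCRHL, COX4I2, COX6C, COX7A1, ATP5F1B, ATP5F1D, ATP5MC3, ATP5MF and ATP5MGL.

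The 4 promoters shown belong to members that ended far apart at 72 h: UQCRC1 and UQCRFS1, subunits of the same complex, and NDUFS8 and COX4I1. Capitals mark the matches to the NRF1, YY1 and ETS motifs, and each sequence reads 5′ to 3′ along its gene.
UQCRC1 (chr3:48609597-48609896, minus strand): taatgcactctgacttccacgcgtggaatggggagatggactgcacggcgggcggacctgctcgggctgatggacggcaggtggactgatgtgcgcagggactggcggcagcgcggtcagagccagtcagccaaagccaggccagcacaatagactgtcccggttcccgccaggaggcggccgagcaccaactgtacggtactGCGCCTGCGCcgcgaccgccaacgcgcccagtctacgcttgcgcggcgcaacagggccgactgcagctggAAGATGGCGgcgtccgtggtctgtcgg
UQCRFS1 (chr19:29213102-29213401, minus strand): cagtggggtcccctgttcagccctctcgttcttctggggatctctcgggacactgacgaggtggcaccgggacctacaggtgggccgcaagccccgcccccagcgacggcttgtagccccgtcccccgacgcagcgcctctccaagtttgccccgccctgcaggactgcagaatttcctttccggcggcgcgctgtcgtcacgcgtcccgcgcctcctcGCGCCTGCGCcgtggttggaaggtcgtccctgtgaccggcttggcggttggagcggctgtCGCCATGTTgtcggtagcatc
NDUFS8 (chr11:68030431-68030730, plus strand): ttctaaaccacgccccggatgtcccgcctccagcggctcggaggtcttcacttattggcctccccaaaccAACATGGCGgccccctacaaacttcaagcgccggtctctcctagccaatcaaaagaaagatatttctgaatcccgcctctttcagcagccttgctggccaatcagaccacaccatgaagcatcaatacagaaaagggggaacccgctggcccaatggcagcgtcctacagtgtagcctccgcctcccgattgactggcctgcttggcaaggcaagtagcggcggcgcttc
COX4I1 (chr16:85799445-85799744, plus strand): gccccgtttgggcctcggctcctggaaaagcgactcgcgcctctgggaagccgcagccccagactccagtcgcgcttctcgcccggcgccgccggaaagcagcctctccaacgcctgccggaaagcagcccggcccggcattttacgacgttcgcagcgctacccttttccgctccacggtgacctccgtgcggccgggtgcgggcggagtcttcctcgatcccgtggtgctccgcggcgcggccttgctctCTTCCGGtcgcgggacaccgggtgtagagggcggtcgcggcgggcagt
UQCRC1 and UQCRFS1 each held 1 NRF1 match and 1 YY1 match, NDUFS8 held 1 YY1 match, and COX4I1 held 1 ETS match. A match is a run of letters and says nothing of whether a factor binds there.

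The members' counts were a slightly larger share of the libraries after 2 h of toyocamycin. They were 0.895% and 0.977% of counts in the toyocamycin libraries against 0.862% and 0.797% in DMSO. Their summed level was 7558 and 8349 CPM against 6900 and 6630 CPM, so the arms did not overlap at 2 h. The DMSO libraries of other times ran from 5677 to 8091 CPM, a range that takes in the 7558 CPM of toyocamycin replicate 1. The median log2 fold change was 0.26 over the 81 members tested and 0.02 over all 14491 genes tested, and 76 of the 81 members lay above 0. The medians of the complexes were alike, from 0.20 in complex II to 0.31 in complex V. Both toyocamycin libraries lay above both DMSO libraries for 32 members, against 16.7% of all genes, and below them for 2 members, against 20.3%.

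No member passed the test at 2 h (edgeR's quasi-likelihood test, Benjamini-Hochberg adjusted p under 0.1 over all genes), where 0.518% of all genes were called higher and 8.42% lower. At an unadjusted p under 0.05 there were 13 of the 81 members, 12 of them higher. Of all 14491 genes tested there were 2177, with 347 higher and 1830 lower. DESeq2's Wald test called 1 member, and the share of all genes it called is not given. The replicate number is the batch at this time, and with it as a block in the 4 libraries of 2 h, 35 of 79 members were called higher and 1 lower, against 8.72% and 18.7% of the 11848 genes then tested. These 35 were spread over complex I (16), II (1), III (4), IV (5) and V (9). The lower one was NDUFV3, an accessory subunit of the NADH-binding part of complex I, at a log2 fold change of -0.36 (adjusted p = 0.0266 with the block). Its levels were 42.7 and 38.7 CPM in DMSO and 31.9 and 32.1 CPM in toyocamycin. The count also rested on single libraries and moved when one was left out, which leaves a group without a replicate. In those fits the member median exceeded the all-gene median by 0.14 to 0.36.

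At 10 h the members rose together in all 5 complexes. Of the 81 tested, 62 were called higher and 1 lower, against 20.4% and 24.4% of all 16521 genes tested. Their median was 1.08 on the log2 scale, against 0.42 over all genes. By complex the medians were 1.08 in I (27 of 38 higher), 0.96 in II (3 of 4), 0.97 in III (8 of 10), 1.15 in IV (10 of 12) and 0.9996 in V (14 of 17). The summed level was 12685 and 10594 CPM in the toyocamycin libraries and 5677 CPM in the single DMSO library.

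**Figure D1:**
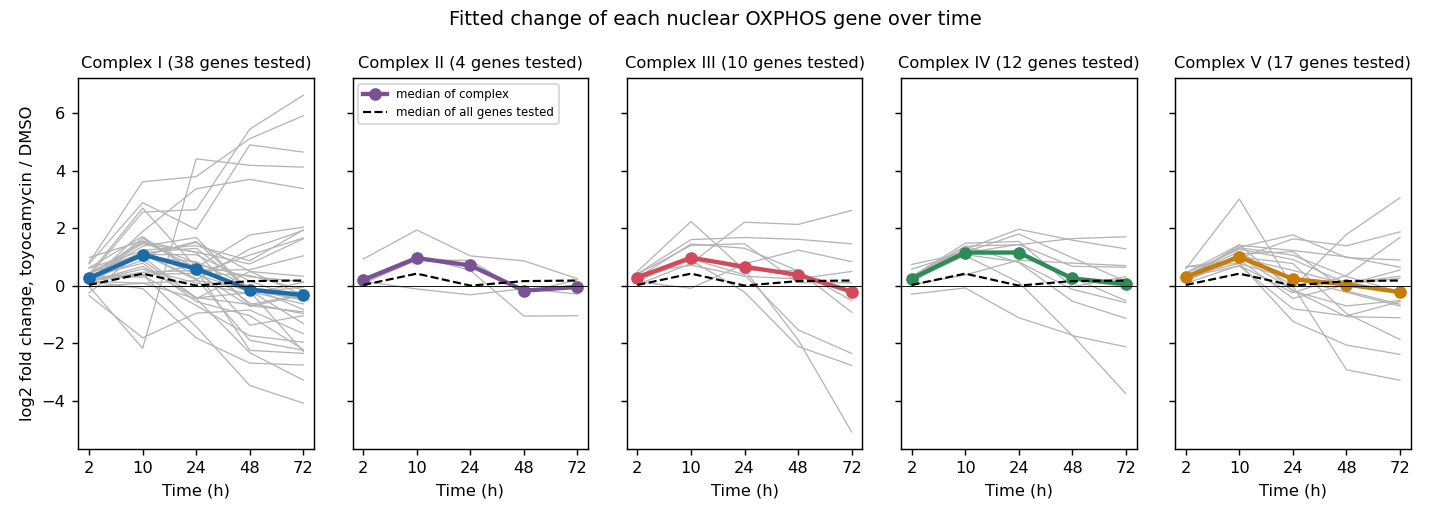
Log2 fold change of toyocamycin over DMSO (vertical axis) at 5 times (horizontal axis, h, evenly spaced steps) for each tested member (grey lines), with the median of each complex (coloured) and of all genes tested (dashed). The medians of all 5 complexes peak at 10 h or, in complex IV, stay level from 10 to 24 h, and the grey lines fan out from 24 h on.

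ATP5F1B stood at 752 CPM in DMSO at 10 h and at 1738 and 1492 CPM in toyocamycin (log2 fold change 1.10 ± 0.24 SE, adjusted p = 0.00188). UQCRC1, a core subunit of complex III, stood at 306 CPM in DMSO and 655 and 581 CPM in toyocamycin (1.01 ± 0.24, adjusted p = 0.00344). COX4I1 stood at 255 CPM and at 703 and 528 CPM (1.27 ± 0.25, adjusted p = 0.000969). In these 3 genes both toyocamycin libraries lay above the DMSO libraries of 10 h and of every other time. NDUFV3 was the member called lower, at 38.1 CPM in DMSO and 13.5 and 7.85 CPM in toyocamycin (-1.82 ± 0.25, adjusted p = 5.17e-05). Members that did not pass included NDUFS1 (-0.10 ± 0.24), of the catalytic core of complex I, and SDHD (-0.12 ± 0.26), a membrane anchor of complex II.

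The single DMSO library of 10 h belongs to batch 2, so its spread was taken from the other groups. Within batch 2 alone the member median exceeded the all-gene median by 0.72, against 0.66 in the whole fit. Without replicate 2 of toyocamycin, the library that stood apart, the member median exceeded the all-gene median by 1.201. That fit sets 1 toyocamycin library of batch 1 against 1 DMSO library of batch 2, so it cannot separate drug from batch. With batch as a term in the whole fit 70 members were higher and 1 lower. The count depended on the scaling: scaled on library size alone 43 were higher and 3 lower, and scaled on the mitochondrially coded genes 2 were higher and 1 lower, where the all-gene median moved by -1.12. Those 13 genes had a median log2 fold change of 1.49 at 10 h, with 8 of 13 called higher, and summed to 39183 and 63212 CPM in toyocamycin against 21914 CPM in DMSO. In DMSO at 2 h they summed to 11368 CPM in replicate 1 and 28841 CPM in replicate 2, which is of batch 2, so their level also differed between batches. For these alternatives at 10 h the shares of all genes called are not given, so the counts show only how the member calls move.

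At 24 h, with 1 library per arm and no test, complex IV and complex V had drawn apart. The medians were 1.15 in complex IV, 0.70 in II, 0.65 in III, 0.58 in I and 0.23 in V, against 0.00 over all genes. A log2 fold change of 1 or more was reached by 30 members, against 29.7% of all genes, and of -1 or less by 4, against 27.8%. COX4I1 was at 1008 CPM in toyocamycin and 262 CPM in DMSO. UQCRFS1, the Rieske iron-sulfur protein of complex III, was at 410 and 89.8 CPM. NDUFS1 was at 29.0 and 103 CPM. The level of the whole set depended on the scaling here: the member median was 0.69 with TMM but -0.33 with library size alone, where the all-gene median was -0.91, and the summed members were 0.755% of counts in toyocamycin and 0.809% in DMSO.

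At 48 h, again with 1 library per arm, the medians were -0.14 in complex I, -0.17 in II, 0.37 in III, 0.25 in IV and 0.04 in V, against 0.16 over all genes. There were 16 members at a log2 fold change of 1 or more (38.1% of all genes) and 18 at -1 or less (29.9%). UQCRC1 had gone from 505 CPM in toyocamycin at 24 h to 114 CPM, beside 429 CPM in DMSO. ATP5MC1, 1 of 3 genes for the same c subunit of the ATP synthase ring, was at 10.8 CPM against 83.8 CPM, while ATP5MC2 was at 94.4 and 113 CPM.

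At 72 h the members, like all genes tested, had split in both directions, and most by more than the spread between libraries. Of 81 tested, 26 were higher, 41 lower and 14 passed in neither direction, against 47% higher and 41.9% lower over all genes. All 3 toyocamycin libraries lay above all 3 DMSO libraries for 25 members (45.8% of all genes) and below them for 40 (41.8%). The median was -0.30, against 0.18 over all genes, with -0.33 in complex I (11 higher, 22 lower), -0.05 in II (0 and 1), -0.21 in III (4 and 5), 0.06 in IV (4 and 5) and -0.22 in V (7 and 8). The log2 fold changes of the members ran from -5.09 to 6.62, against -9.88 to 13.4 over all genes. The members were less spread than all genes, with an interquartile range of 1.74 against 4.08. Their median level in DMSO was also higher, at 47.8 CPM against 18.8 CPM, and genes of matched level were not compared.

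These counts move with the scaling, and the shares of all genes called in each scaling are not given beside them. With DESeq2's size factors 37 were higher and 27 lower, with library size alone 18 and 53, and with the mitochondrially coded genes as the scale 11 and 53. The all-gene median moved by 0.32, -0.60 and -1.07 in these 3 scalings, and the member median became 0.03 with DESeq2's size factors. Of the 67 members called, 2, 3 and 9 changed sign in these scalings, COX6A1, COX7A2L and ATP5F1E among the 9. Relative to the all-gene median, the members' median was lower by 0.44 to 0.48 in these scalings and with TMM, but it was 0.09 above it among genes with at least 10 counts in every library.

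**Figure D2:**
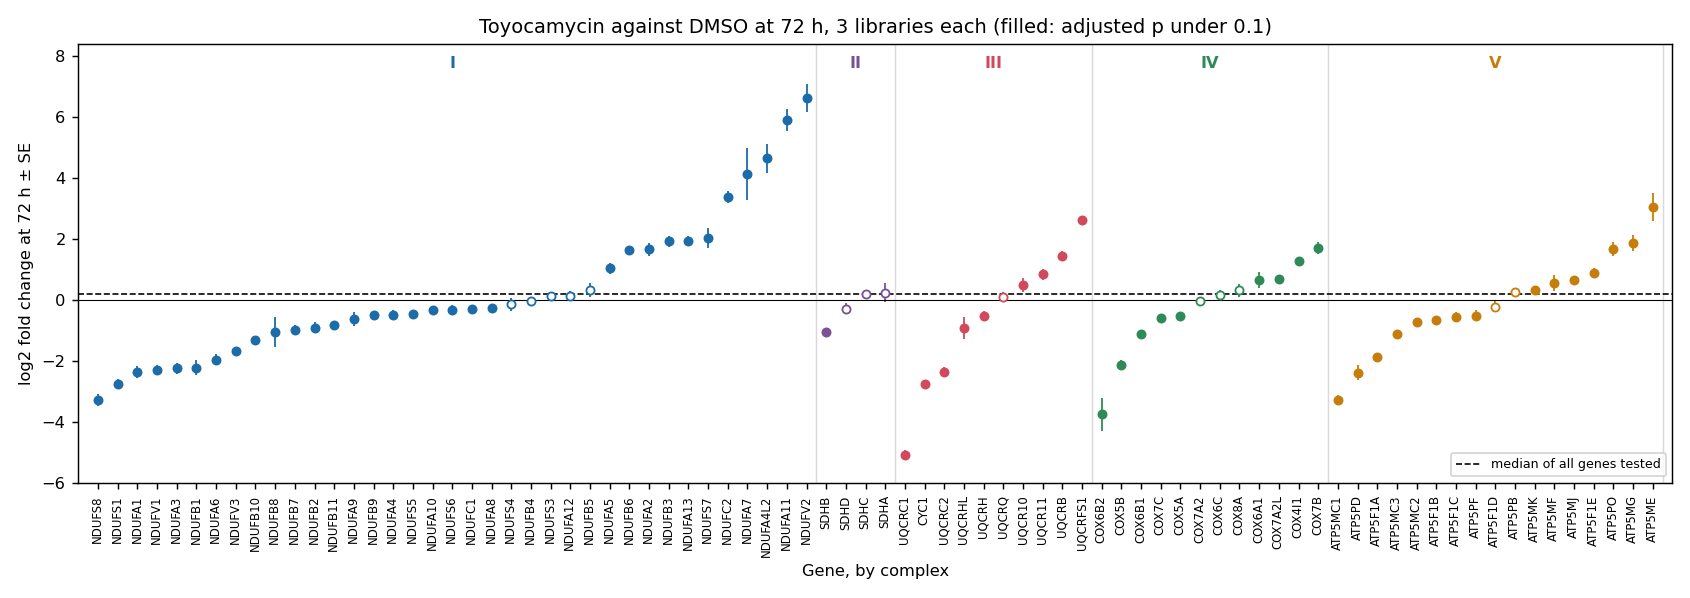
Log2 fold change at 72 h (vertical axis) of the tested members, 1 of complex I not shown, ordered within complexes I to V, with the standard error of the fit, 3 libraries per arm. Filled points passed an adjusted p under 0.1, and the dashed line is the median of all genes tested. Each complex except II has filled points on both sides of 0, from UQCRC1 at -5.09 to NDUFV2 at 6.62.

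Complex III held subunits that moved far in opposite directions at 72 h. UQCRC1 (ENSG00000010256, chr3:48599002-48610976, GRCh38, 13 exons) was at 490, 488 and 463 CPM in DMSO and at 15.6, 13.1 and 12.7 CPM in toyocamycin. The groups did not overlap, and the log2 fold change was -5.09 ± 0.15 (adjusted p = 5.72e-13). UQCRFS1 (ENSG00000169021, chr19:29205320-29213151, 2 exons) was at 101, 104 and 108 CPM in DMSO and at 685, 622 and 568 CPM in toyocamycin. It went the other way by 2.61 ± 0.14 (adjusted p = 8.29e-11), again with no overlap. The ratio of UQCRC1 to UQCRFS1 counts, into which no scaling enters and which was chosen after its values were seen, was 3.33 to 4.85 over the 8 DMSO libraries, 4.41 and 8.29 at 10 h, 1.23 at 24 h, 0.231 at 48 h and 0.0210 to 0.0228 in the 3 toyocamycin libraries of 72 h.

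**Figure D3:**
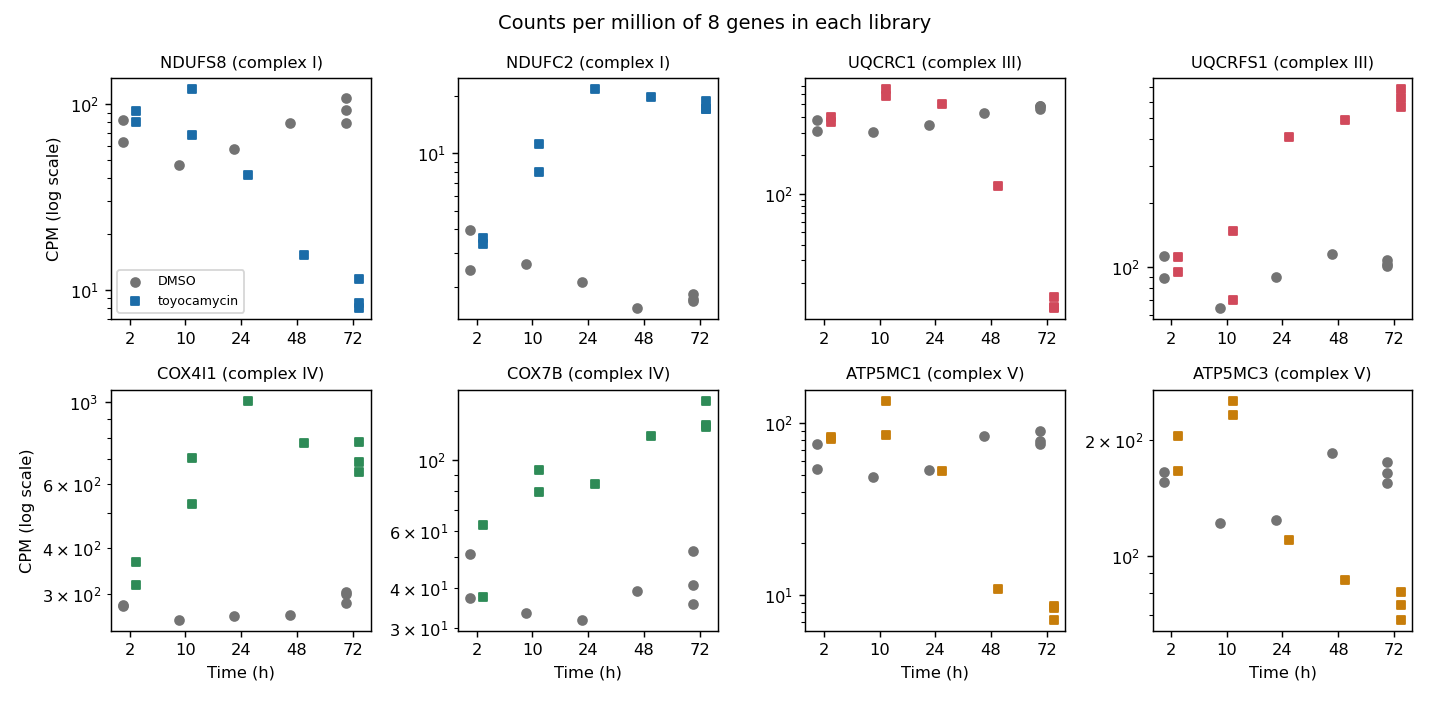
CPM (vertical axis, log scale) of 8 members in each library by time (horizontal axis, h), DMSO as grey circles and toyocamycin as coloured squares. NDUFS8, UQCRC1, ATP5MC1 and ATP5MC3 end below DMSO at 72 h, and NDUFC2, UQCRFS1, COX4I1 and COX7B end above it.

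UQCRC2, the other core protein, fell from 206, 240 and 267 CPM in DMSO to 51.4, 41.0 and 43.5 CPM (-2.36 ± 0.16, adjusted p = 1.71e-09). CYC1, cytochrome c1, fell from 443, 480 and 360 CPM to 56.0, 59.9 and 67.5 CPM (-2.77 ± 0.16, adjusted p = 1.94e-10). UQCRB, a small subunit of the quinone-binding part, rose from 49.996, 50.07 and 63.9 CPM to 165, 136 and 138 CPM (1.45 ± 0.15, adjusted p = 2.17e-07). Within the counts of complex III, UQCRFS1 went from 6.42% to 7.04% in DMSO to 56.1% to 59.3% in toyocamycin, and UQCRC1 from 30.1% to 31.9% to 1.25% to 1.30%. Its hinge gene UQCRH was at 199, 219 and 229 CPM in DMSO and 180, 129 and 134 CPM in toyocamycin (-0.52 ± 0.15, adjusted p = 0.00447). UQCRHL (-0.93 ± 0.36, adjusted p = 0.0251) is a single-exon copy of UQCRH, so reads of the pair may not be told apart.

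In complex I the catalytic core had a lower median than the accessory subunits, a difference that was not tested. The 7 core members had a median of -2.30 at 72 h, of which 4 were lower and 2 higher, and the 31 others had a median of -0.33, with 18 lower and 9 higher. NDUFS8, an iron-sulfur subunit, was at 93.1, 108 and 79.0 CPM in DMSO and at 8.55, 7.97 and 11.5 CPM in toyocamycin (-3.29 ± 0.19, adjusted p = 1.79e-10). NDUFS1, the largest iron-sulfur subunit, was at 105, 113 and 131 CPM and at 14.8, 17.05 and 18.2 CPM (-2.76 ± 0.16, adjusted p = 2.01e-10). Neither gene overlapped between arms.

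NDUFV1, which binds NADH, followed another course. It was at 732 and 367 CPM in toyocamycin at 10 h, 896 CPM at 24 h, 318 CPM at 48 h and 76.1, 75.9 and 80.6 CPM at 72 h. Its DMSO libraries lay between 209 and 427 CPM at all times, so it stood above them at 24 h and below them at 72 h (-2.30 ± 0.16, adjusted p = 1.52e-09). NDUFS3, also of the core, was at 84.0, 81.7 and 74.7 CPM in DMSO and 87.9, 76.4 and 91.1 CPM in toyocamycin at 72 h (0.12 ± 0.12, adjusted p = 0.371), and its arms overlapped.

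Several complex I members that rose at 72 h shared exons with other genes. The counts leave out reads that map to more than 1 gene. The strand setting is not given, and the annotation used here for overlap may differ from that used for counting. Whether reads of these members were lost is therefore not known. NDUFV2 and NDUFA11 had the highest log2 fold changes, 6.62 ± 0.47 (adjusted p = 2.27e-09) and 5.91 ± 0.37 (adjusted p = 5.81e-10). NDUFV2 had 0.0497, 0.279 and 0.0429 CPM in DMSO and 13.1, 10.3 and 14.2 CPM in toyocamycin. Its DMSO values rest on 1, 6 and 1 counts, and 89.97% of the bases in its exons lay under another gene. NDUFA11 had 1.44, 1.86 and 0.601 CPM and 63.8, 86.4 and 77.6 CPM, with 68.2% of its exon bases covered. In all 8 members had over 50% covered: NDUFA7, NDUFA11, NDUFA13, NDUFB8, NDUFS7, NDUFV2, SDHA and ATP5PO. Of these 6 were called higher and 1 lower at 72 h, and the other 73 tested members gave 20 higher and 40 lower with a median of -0.33.

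Among complex I members with most of their exons free of other genes, NDUFC2, a membrane subunit, was at 1.83, 1.67 and 1.72 CPM in DMSO and 18.9, 17.1 and 17.1 CPM in toyocamycin (3.37 ± 0.21, adjusted p = 5.22e-10), with 22.3% of its exon bases shared. NDUFB6 rose from 32.2, 29.6 and 37.8 CPM to 118, 89.4 and 94.6 CPM (1.63 ± 0.14, adjusted p = 2.71e-08). NDUFA4L2, a relative of NDUFA4 known for its response to low oxygen, was at 0.0464 to 0.248 CPM in DMSO and 2.87 to 5.003 CPM in toyocamycin (4.64 ± 0.47, adjusted p = 1.87e-07). Its DMSO values rest on 5, 1 and 4 counts, so the size of that fold change is uncertain. NDUFA4 itself was at 107, 130 and 156 CPM and 89.9, 95.1 and 87.3 CPM (-0.50 ± 0.16, adjusted p = 0.00835), with no overlap. NDUFV3 was lower again, at 39.3, 39.7 and 39.2 CPM and 13.7, 11.4 and 11.3 CPM (-1.67 ± 0.14, adjusted p = 1.31e-08), and was the sole member called lower at both 10 and 72 h.

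In complex II, 1 of 4 genes passed at 72 h, and the calls of the other 3 varied with the setting. SDHB, its iron-sulfur subunit, was at 77.9, 90.3 and 93.8 CPM in DMSO and 39.5, 42.3 and 42.1 CPM in toyocamycin (-1.05 ± 0.12, adjusted p = 9.09e-07). SDHC, a membrane anchor, was at 69.8, 80.6 and 91.5 CPM and 103, 81.6 and 87.9 CPM, with overlap (0.20 ± 0.13, adjusted p = 0.162). SDHD was at 18.6, 17.9 and 26.1 CPM and 18.1, 16.4 and 15.5 CPM (-0.30 ± 0.18, adjusted p = 0.129). SDHA, the flavoprotein, was at 3.12, 2.28 and 2.58 CPM and 4.62, 1.76 and 2.87 CPM (0.24 ± 0.30, adjusted p = 0.463), with 69.4% of its exon bases under another gene. SDHC was called lower with library size alone (-0.40, adjusted p = 0.0138 by edgeR) and with the mitochondrially coded genes as the scale (-0.83, adjusted p = 0.0779), but higher in 6 other settings, among them DESeq2's size factors (0.52, adjusted p = 0.0015). SDHD was called lower in 6 settings, among them library size alone (-0.90, adjusted p = 0.000206), and SDHA higher with DESeq2's size factors (0.56, adjusted p = 0.0953).

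Complex IV took a growing part of the members' counts. It was 13.7% to 14.7% of the member counts over the 8 DMSO libraries, 13.6% and 14.8% in toyocamycin at 2 h, 15.6% and 16.1% at 10 h, 19.6% at 24 h, 23.0% at 48 h and 22.8% to 23.7% at 72 h. This share does not depend on the scaling of the libraries, and from 10 h on it lay above the range of the DMSO libraries. Complex I went from 27.2% to 30.4% over DMSO to 23.7% to 24.9% at 72 h, and complex V from 34.1% to 36.9% to 31.0% to 31.9%, both below their DMSO ranges. Complex III, at 17.8% to 19.1%, and complex II, at 2.52% to 2.61%, lay within theirs at 72 h. Complex II had been at 2.12% and 2.45% at 10 h, 2.09% at 24 h and 1.90% at 48 h, against 2.26% to 2.77% in DMSO. Complex III had been at 17.47% at 24 h, against 17.58% to 20.46% in DMSO. UQCRFS1 carried the share of complex III at 72 h. Without that gene the share was 16.6% to 19.4% over DMSO and 8.48% to 9.25% in toyocamycin at 72 h.

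**Figure D4:**
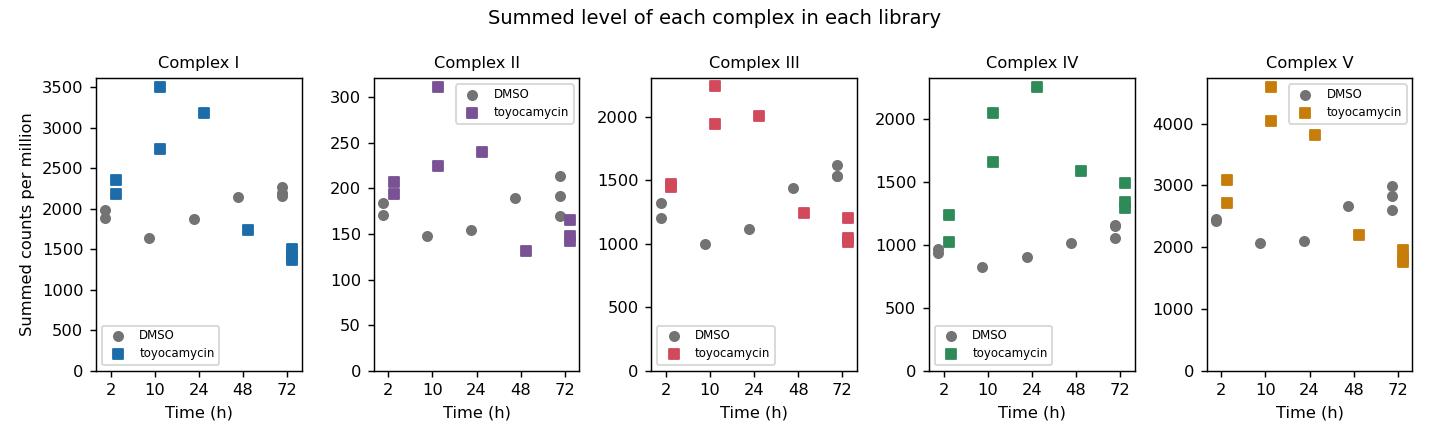
Summed CPM of the members of each complex (vertical axis, from 0) in each library by time (horizontal axis, h), DMSO as grey circles and toyocamycin as coloured squares. At 72 h the toyocamycin libraries of complexes I, II, III and V lie below the DMSO libraries, and those of complex IV, at 1292 to 1493 CPM against 1057 to 1159 CPM, lie above.

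The summed level of complex IV at 72 h was higher with TMM scaling, but as a share of all counts it was 0.0974% to 0.113% in toyocamycin against 0.117% to 0.130% in DMSO, so its direction turns with the scaling. COX4I1 (ENSG00000131143, chr16:85798633-85807068, 5 exons) was at 304, 301 and 285 CPM in DMSO and 778, 688 and 645 CPM in toyocamycin (1.28 ± 0.12, adjusted p = 9.47e-08). Scaled on the mitochondrially coded genes, the calls of COX4I1 (0.20, adjusted p = 0.695), COX7B (0.67, adjusted p = 0.156) and UQCRB (0.41, adjusted p = 0.392) at 72 h were lost. COX4I1 was 24.5% to 28.7% of the complex IV counts in DMSO and 49.9% to 52.1% in toyocamycin. Without COX4I1 the complex IV share of member counts was 10.5% to 11.2% in DMSO and 12.9% to 13.1% in toyocamycin at 72 h.

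Other complex IV genes went in both directions. COX7B rose from 35.6, 40.8 and 52.0 CPM to 153, 129 and 127 CPM (1.70 ± 0.20, adjusted p = 8.08e-07). COX5B fell from 131, 133 and 125 CPM to 33.3, 26.9 and 27.0 CPM (-2.13 ± 0.14, adjusted p = 1.4e-09), and the COX4I1 to COX5B count ratio went from 2.26 to 4.08 over DMSO to 23.4 to 25.6. COX6B1 fell by 1.14 ± 0.15 on the log2 scale (adjusted p = 3.39e-06). Of the paired forms, COX6B2, known from testis, was at 2.33, 1.44 and 1.63 CPM in DMSO and 0.197, 0.0927 and 0.0869 CPM in toyocamycin. It was called lower (adjusted p = 1e-05), but its 2, 1 and 1 counts in toyocamycin are too few for a fold change. COX7A2L, a factor in joining complexes III and IV, rose by 0.69 ± 0.13 (adjusted p = 0.000162) and COX6A1 by 0.64 ± 0.26 (adjusted p = 0.0336). COX7A2 (-0.04 ± 0.14, adjusted p = 0.792) and COX8A (0.31 ± 0.21, adjusted p = 0.17) did not pass.

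In complex V the subunits of the catalytic head fell unequally. ATP5F1A, the alpha subunit, was at 558, 619 and 684 CPM in DMSO and 167, 164 and 165 CPM in toyocamycin (-1.88 ± 0.12, adjusted p = 1.02e-09). ATP5F1B was at 974, 1102 and 1164 CPM and 719, 646 and 654 CPM (-0.65 ± 0.13, adjusted p = 0.00017). Neither gene's arms overlapped. The ratio of ATP5F1A to ATP5F1B counts, whose proteins stand in equal number in the enzyme, was 0.562 to 0.722 over DMSO and 0.232 to 0.254 at 72 h.

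The 3 genes for the c subunit also differed. ATP5MC1 fell from 75.9, 89.6 and 78.5 CPM to 7.17, 8.43 and 8.69 CPM (-3.29 ± 0.16, adjusted p = 4.5e-11). ATP5MC3 fell from 154, 164 and 175 CPM to 80.4, 68.0 and 74.4 CPM (-1.12 ± 0.13, adjusted p = 6.45e-07), and ATP5MC2 by 0.71 ± 0.13 (adjusted p = 9.14e-05). ATP5PD, a stalk subunit, was at 29.4, 25.6 and 20.7 CPM in DMSO and 5.11, 4.54 and 4.43 CPM in toyocamycin (-2.39 ± 0.24, adjusted p = 1.87e-07). The small membrane subunits ATP5ME (3.06 ± 0.45, adjusted p = 1.24e-05) and ATP5MG (1.87 ± 0.26, adjusted p = 6e-06) rose from levels under 6 CPM in the DMSO libraries of 72 h, with 39.6% and 24.4% of their exon bases shared with other genes.

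Members that rose at 10 h went both ways at 72 h. Of the 62 members higher at 10 h, 33 were lower at 72 h, 19 stayed higher and 10 passed in neither direction. Those 33 were 16 of complex I, 1 of II, 5 of III, 4 of IV and 7 of V, among them UQCRC1, CYC1, NDUFV1, NDUFS8, ATP5F1A, ATP5MC1 and COX5B. The 10 h calls of NDUFS8 and CYC1 were lost with library size alone (adjusted p = 0.172 and 0.222 by edgeR), that of NDUFS8 without replicate 1 of toyocamycin (adjusted p = 0.107), and that of CYC1 with the DMSO libraries of 2 and 10 h together (adjusted p = 0.127). Of the 3326 genes higher at 10 h among those tested at both times, 33.1% were lower at 72 h, 59.4% higher and 7.52% neither. Of the 18 members that passed in neither direction at 10 h, 7 were higher and 7 lower at 72 h, against 54.1% and 33.3% of the 7132 genes in that class, with NDUFS1 and ATP5PD among the lower, and NDUFA12, NDUFB5, NDUFS4 and SDHD passed at neither time.

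**Figure D5:**
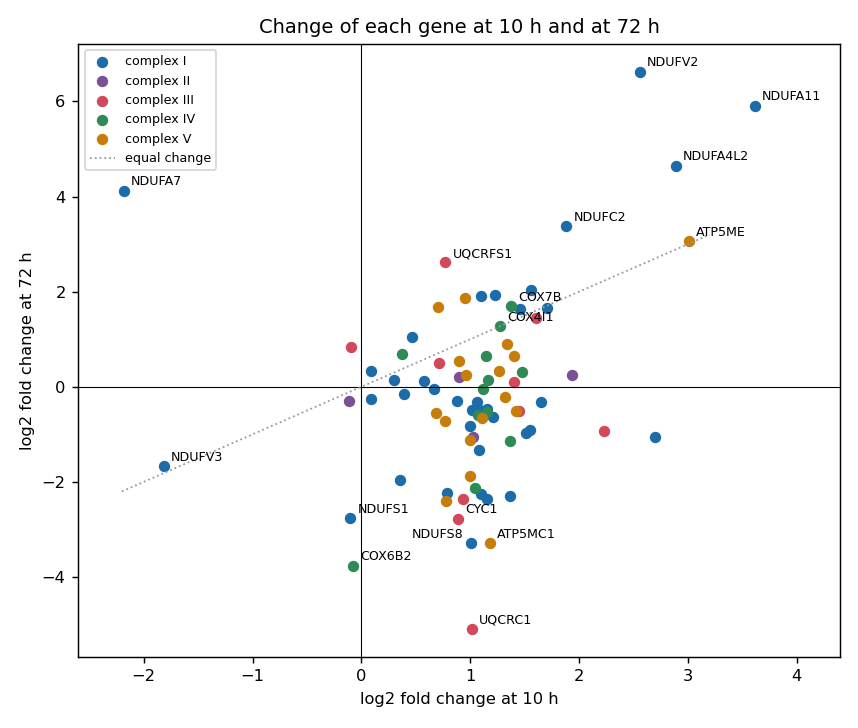
Log2 fold change at 10 h (horizontal axis) and at 72 h (vertical axis) of the tested members, 1 of complex I not shown, coloured by complex, with the line of equal change dotted. Points to the right of 0 and below 0 are members higher at 10 h and lower at 72 h, and UQCRC1 lies lowest at -5.09.

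The effect at 72 h was tested against the earlier effects directly. Against 10 h it was lower for 50 members and higher for 8, beside 26.6% and 25.4% of all genes, with the 8 higher being NDUFA7, NDUFA11, NDUFA13, NDUFB3, NDUFC2, NDUFV2, UQCRFS1 and UQCR11. No member of complexes IV or V was among those 8, and 8 of 12 and 12 of 17 of their members were lower. The count of 8 was 4 without the members that share most of their exons, and 5 without replicate 1 of toyocamycin at 72 h. It also moved without replicate 1 of toyocamycin at 10 h. The shares of all genes called with a library left out are not given. Against 2 h the effect at 72 h was lower for 40 and higher for 21 members, beside 38.1% and 38% of all genes. Both comparisons share the libraries of 72 h. In DMSO, replicate 2 of 2 h is of batch 2 and the libraries of 72 h are of batch 1, so time in culture is partly mixed with batch. Few members were called for 72 h against 2 h in DMSO, 5 higher and 3 lower, beside 10.2% and 11.4% of all genes. COX5B (0.69) and NDUFV1 (0.61) were the highest and NDUFV2 (-2.01) the lowest of those called. Those counts rested on the DMSO libraries of 2 h and moved when either was left out, which leaves that group without a replicate.

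The genes that build or feed these complexes were described in the same way. Of 55 assembly factors and accessory genes, 29 were higher and 15 lower at 72 h (median 0.39), beside 47% and 41.9% of all genes and their median of 0.18, with SCO2 (5.38), a copper chaperone of complex IV, and PET100 (5.77) the highest, and UQCC2 (-3.54), an assembly factor of complex III, and ACAD9 (-3.17), of complex I, the lowest. Of 13 mitochondrially coded subunits, 11 were higher and 0 lower (median 1.10), and 0 were lower with DESeq2's Wald test or at an unadjusted p under 0.05. They summed to 19317 to 25491 CPM in toyocamycin and 8274 to 13248 CPM in DMSO at 72 h, but as a share of counts the arms overlapped, at 1.46% to 1.85% and 0.917% to 1.49%. With library size alone 7 of the 13 were higher (median 0.49). Of 13 regulators of mitochondrial biogenesis, 8 were higher and 3 lower, with PPARGC1A (4.55) and GABPB1 (2.46) the highest and ESRRA (-2.81) and POLRMT (-1.06) the lowest. Of 76 mitochondrial ribosomal proteins, 40 were higher and 29 lower (median 0.37). With library size alone the medians of the assembly factors and of the mitochondrial ribosomal proteins were -0.21 and -0.23. Of 84 cytosolic ribosomal proteins tested, 81 were higher and 1 lower (median 1.52).

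The 13 genes of the TCA cycle, whose NADH and succinate feed complexes I and II, were all lower at 72 h (median -1.19), from OGDH at -4.41 to FH at -0.31, beside 41.9% of all genes, and 11 of 13 were lower with DESeq2's size factors, where 1 of the 13 lay above 0. At 10 h 6 of them had been higher and 2 lower, beside 20.4% and 24.4% of all genes. Their effect at 72 h was lower than at 10 h for 13 of 13, beside 26.6% of all genes. The DMSO libraries of 10 h and 72 h stand on both sides of that test. Among the 81 members, the rank correlation between level in DMSO and log2 fold change at 72 h was -0.50, and -0.58 across all genes tested, which share these libraries and the DMSO level itself.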

How the data were processed

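Poly(A) RNA of YB5 cells was sequenced as paired 150-base reads in 17 libraries, grouped by GEO's labels into 10 groups of arm and time. Per the labels and the study's methods, the authors aligned the reads with STAR 2.7.5a to GRCh38 and deposited raw counts per gene, which leave out reads that map to several places or to more than 1 gene. The strand setting is not given in the sources used here. The table's comparison columns made by the authors (fold changes and p-values) were not used, nor was 1 count column that matches no sample. Of 19141 gene identifiers, 19080 were matched to a symbol, and 1 read-through symbol was left out of the members.

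Counts were analysed with edgeR 4.0.16 (R 4.3.3): filterByExpr, TMM, and the quasi-likelihood test in its earlier form, 1 coefficient per group, with calls made where the p, adjusted by Benjamini and Hochberg over all genes tested, was under 0.1. The fit held 14 libraries for 2, 24, 48 and 72 h and 17 for 10 h and for 72 against 10 h. At 24 and 48 h there was 1 library per arm, so values past a log2 fold change of 1 were counted without a test. The labels speak of biological replicates. No 2 libraries of a group agreed within sampling noise. At 2 h the replicate number marks the batch in both arms, and same-numbered libraries deviated together (correlation 0.307), so a fit with that block is given beside the result. At 72 h all 6 libraries were of batch 1 and the 3 correlations lay between -0.105 and 0.0427, so the numbers were not taken as pairs.

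Members, gene lists and motifs were chosen with earlier results of these data known. Lists are described by counts and medians beside all genes, with no test. Genes named were the 2 highest and 2 lowest of each complex at 72 h, all 4 of complex II, members called in opposite directions, paired isoforms and catalytic subunits, with a few others named after their values were seen. Of the members, 1 is in every count but is not reported here by name. Exon overlap and spans came from GENCODE 44 (GRCh38), and promoters from RefSeq (GRCh38.p14). Alternatives were other scalings, filters, tests, controls and fits, and each library left out in turn. The fit of 14 libraries was checked on simulated counts for 2 h and 72 h, and the fits that hold the 10 h libraries were not checked in this way. Few genes were changed in the simulation, equally up and down, so it could not test the scaling where most genes change. Depth limits the lowest members, and intervals cover the spread between libraries only.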

Additional observations from a re-analysis of the deposited data

Results flagged for a closer look

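The effect of toyocamycin differed between time points, by the test of the difference itself (edgeR's quasi-likelihood test, adjusted p under 0.1). Between 72 h and 2 h, 21 of the 81 members had a higher effect at 72 h and 40 a lower one, beside 38% and 38.1% of all genes. UQCRC1 (-5.24) and ATP5MC1 (-3.63) had strongly negative differences in log2 fold change, and NDUFV2 (6.29) and NDUFA11 (5.11) the most positive ones. Between 72 h and 10 h, 8 members had a higher effect at 72 h and 50 a lower one, beside 25.4% and 26.6% of all genes. UQCRC1 (-6.14) and ATP5MC1 (-4.51) were again among the lowest, and NDUFA7 (6.23) and NDUFV2 (4.03) were highest. NDUFA7, NDUFA11 and NDUFV2 share over 50% of their exon bases with other genes, and NDUFA7 never exceeded 19 counts in a library. The part that overlapping genes play in these differences was not tested.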

How the results depend on the processing

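The values given are numbers of members called, or differences of medians on the log2 scale: members less all genes, or a complex less all members. The counts stand here without the shares of all genes called in the same setting. The cause of a change was not tested unless the setting itself removes genes or libraries. With DESeq2's size factors 27 members were lower at 72 h. DESeq2's Wald test gave 1 higher at 2 h, 27 lower at 72 h and 8 higher in DMSO over time. Library size alone gave 3 lower at 10 h, 5 higher for 72 minus 10 h, and 2 higher and 6 lower in DMSO over time. Scaling on the mitochondrially coded genes gave 2 higher at 10 h, 11 higher at 72 h, 6 higher for 72 minus 2 h, 3 higher and 26 lower for 72 minus 10 h, 0 higher and 0 lower in DMSO over time, and -0.071 for complex I at 72 h. It turned the sign at 10 h of UQCRC1 (-0.11), UQCRFS1 (-0.26), NDUFS8 (-0.050), CYC1 (-0.18), UQCRC2 (-0.24), SDHB (-0.076), SDHC (-0.17), COX5B (-0.055), ATP5F1A (-0.13) and ATP5F1B (-0.013), and at 72 h of SDHC (-0.83), as library size alone did (-0.40).

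Without a filter on low counts, 5 were lower in DMSO over time, the members less all genes gave 0.41, -0.038 and -0.96 at 10, 48 and 72 h, complex I gave -0.18 at 48 h and -0.14 at 72 h, and complex IV 0.66 at 72 h. With at least 10 counts in every library, 1 was higher at 2 h, the members gave 1.28, 0.25 and 0.090 at 10, 48 and 72 h, complex I gave -0.20 at 24 h and -0.092 at 72 h, and complex IV 0.46 at 72 h. Among members with an average log2 CPM of at least 4, 13 were higher at 72 h, 10 for 72 minus 2 h and 3 for 72 minus 10 h, 0 were lower in DMSO over time, the members gave -0.65 at 72 h, complex I -0.26 and -0.055 at 24 and 48 h, complex III 0.55, 0.23 and -0.043 at 24, 48 and 72 h, complex IV 0.53 at 72 h and complex V -0.22 at 24 h. Without overlapped members, 4 were higher for 72 minus 10 h, complexes III, IV and V gave 0.10, 0.60 and -0.18 at 24 h, and complex I -0.15 at 72 h.

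All 17 libraries in 1 fit gave 1 higher in DMSO over time and -0.80 for the members at 72 h, and batch as a term 2 and -0.80. A minimum fold of 1.2 gave 2 higher in DMSO over time, and an adjusted p under 0.05 gave 5 higher for 72 minus 10 h. Batch 2 alone gave -0.063 for complex I and -0.029 for complex IV at 10 h, DMSO of 24 to 72 h together -0.024 and 0.29 at 24 h, and NDUFA4 moved to complex IV gave -0.14 for complex I at 24 h and 0.25 for complex IV at 72 h. The libraries of 72 h alone gave -0.22 for the members. The replicate block gave 35 higher and 1 lower at 2 h, and at 72 h, where the numbers do not pair, -0.21 for the members, with 29 higher and 37 lower.

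Leaving out each library in turn gave 0 to 12 higher at 2 h, 5 to 10 higher for 72 minus 10 h, 1 to 13 higher and 1 to 5 lower in DMSO over time, and 0.72 to 1.201 for the members at 10 h. Complex I ran from -0.065 to 0.029 at 2 h, from -0.065 to -0.057 at 10 h and from -0.095 to -0.014 at 72 h, and complex IV from -0.030 to 0.054 at 10 h and from 0.24 to 0.38 at 72 h. Of 686 values for counts and medians, 607 stayed within their limit over 31 settings. The median of complex IV lay above that of all members at 72 h in each setting run. The test of 72 minus 10 h, the settings without overlapped members and with the libraries of 72 h alone, and the shares without COX4I1 were chosen after seeing the data. At 24 and 48 h there is no replicate, and complex II rests on 4 genes.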
